A study of Mus musculus with 25 samples.

Results

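The genes of this report encode the acylglycerol synthesis enzymes, a set of 10 named genes (Gpam, Gpat2, Gpat3, Gpat4, Lpin1, Lpin2, Lpin3, Mogat1, Dgat1 and Dgat2) among the 48795 genes of the count files. They are defined by name, each symbol was matched to 1 Ensembl gene, and all 10 passed the filter on low counts. RNA sequencing covered 25 samples of male C57BL/6J mouse liver in 5 groups, taken at 36 to 39 weeks of age. nonDEN-L-CD was liver of mice without carcinogen on the control diet (CD, AIN-93G, n = 3), and nonDEN-L-WD was liver of such mice on the Western diet (WD, AIN-76A, n = 4). Mice of the other groups had received diethylnitrosamine (DEN), a carcinogen activated by liver enzymes, at 25 mg/kg into the abdomen at an age of 2 weeks. DEN-L-CD was liver of DEN mice on CD (n = 4), DEN-PT-WD the peritumoral tissue of DEN mice on WD (n = 8) and DEN-T-WD the tumors of DEN mice on WD (n = 6). Diets began at weaning. Per the study's text, some but not all DEN mice on CD also had tumors by 39 weeks. These could not be dissected apart, so DEN-L-CD may hold tumor tissue. Its samples are labelled as liver and not as peritumoral tissue, so a comparison of DEN-PT-WD with DEN-L-CD sets whole liver beside tissue next to a tumor. The labels do not say that replicates came from separate animals, so p-values measure the spread between these samples.

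Liver makes triacylglycerol mainly from glycerol 3-phosphate. Glycerol-3-phosphate acyltransferases (GPATs) add the first fatty acid, acylglycerol-phosphate acyltransferases add the next, lipins remove the phosphate to give diacylglycerol, and diacylglycerol acyltransferases (DGATs) add the last fatty acid. Monoacylglycerol acyltransferases (MGATs) reach diacylglycerol by another route, from monoacylglycerol, which is the main route in intestine and a minor one in normal mouse liver. The pathway supplies the fat of lipid droplets and of secreted lipoproteins, and diacylglycerol is also a precursor of phospholipids.

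The promoters of Mogat1, Gpat3 and Lpin1 are shown because these genes had most of the calls in the comparisons without tumor samples. Each line is the 250 bases before the RefSeq transcript start in GRCm38.p6, 5′ to 3′ on the gene's strand. They lie at chr1:78510810-78511059 on the + strand for Mogat1, at chr5:100845979-100846228 on the + strand for Gpat3 and at chr12:16610967-16611216 on the - strand for Lpin1. In GENCODE, which gave the gene positions here, Gpat3 starts at 100845713, so its window lies inside the annotated gene. Mogat1 starts there at 78510991, so its window runs past that start. Capitals mark matches to GGGCGG (a GC box) or AGGTCA (a nuclear receptor half-site), searched on both strands.
Mogat1: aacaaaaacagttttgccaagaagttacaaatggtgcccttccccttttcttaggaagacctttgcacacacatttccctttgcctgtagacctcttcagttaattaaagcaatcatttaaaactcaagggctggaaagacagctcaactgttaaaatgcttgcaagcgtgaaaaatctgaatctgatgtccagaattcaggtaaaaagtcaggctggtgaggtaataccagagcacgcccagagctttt
Gpat3: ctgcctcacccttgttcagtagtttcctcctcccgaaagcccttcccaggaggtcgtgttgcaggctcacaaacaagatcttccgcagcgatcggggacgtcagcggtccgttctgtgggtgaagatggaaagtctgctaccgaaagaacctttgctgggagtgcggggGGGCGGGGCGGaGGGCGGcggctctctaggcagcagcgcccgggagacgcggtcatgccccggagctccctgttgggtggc
Lpin1: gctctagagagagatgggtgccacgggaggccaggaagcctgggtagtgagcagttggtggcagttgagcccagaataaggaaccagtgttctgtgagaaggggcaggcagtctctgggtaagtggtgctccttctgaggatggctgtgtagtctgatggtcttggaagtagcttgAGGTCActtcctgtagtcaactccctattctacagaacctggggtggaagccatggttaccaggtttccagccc
The table of promoters held 7 of the 10 members in 11 sequences. The Gpat3 window held GGGCGG on its own strand at positions -81, -76 and -69 from the start, the first pair overlapping, and 32.7% of all 32851 promoters of this length held at least 1 match. The Lpin1 window held AGGTCA at position -74, as did 14% of all promoters on either strand. The Mogat1 window held neither of these. It also lacked the CCAAT box, spelled CCAAT and found in 33.8% of promoters, the TATA box, spelled TATAAA and found in 12.4%, and the E-box, spelled CACGTG and found in 6.02%. Its GC content was 41.2%, against 64.0% for Gpat3, 54.8% for Lpin1 and a median of 52.4% over all promoters. A match describes letters only, and no binding was measured.

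The libraries held 21530083 to 38074411 expected counts, with a median of 27610432. Values are given as CPM (counts scaled to a common library total) on TMM library sizes when 1 gene is followed across samples, and as TPM, transcript shares that correct for length, when genes are compared with each other. Fold changes are log2 values ± SE from edgeR's quasi-likelihood test, adjusted p-values are Benjamini-Hochberg values over 15625 genes, and genes are called where the adjusted p does not exceed 0.05. In 8 libraries, at least 1 in each group, exocrine pancreas markers summed to 500 TPM or more (range over all libraries 0.25 to 4740 TPM), and results that change without those libraries are given with that value. Hepatocyte markers summed to 45403 to 64889 TPM in the 3 liver groups, to 35339 (replicate 7) to 63149 TPM in DEN-PT-WD, and to 103941 to 123771 TPM in DEN-T-WD except replicate 5, which had 28623 TPM. That sum is mostly Alb, and as the mean log2 CPM of the list those 5 tumors had 11.46 to 11.65, against 12.09 to 12.26 in nonDEN-L-CD and 11.14 to 11.73 in the peritumoral tissue.

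Among the 5 comparisons without tumor samples, the members called were Mogat1, Gpat3 and Lpin1, with a single call of Lpin2. From 1 to 4 of the 10 members were called in each, where 10.6% to 45.3% of all genes were. WD without DEN raised Mogat1 13.0-fold and lowered Lpin1 2.69-fold. DEN on CD raised Mogat1 5.59-fold and lowered Gpat3 2.19-fold. In DEN mice on WD the peritumoral tissue had 3.18-fold more Gpat3 than the liver of DEN mice on CD. Dgat1, Dgat2, Gpam, Gpat2, Gpat4 and Lpin3 were not called by the count test in any of the 5 comparisons without tumor samples or in the interaction.

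**Figure D1:**
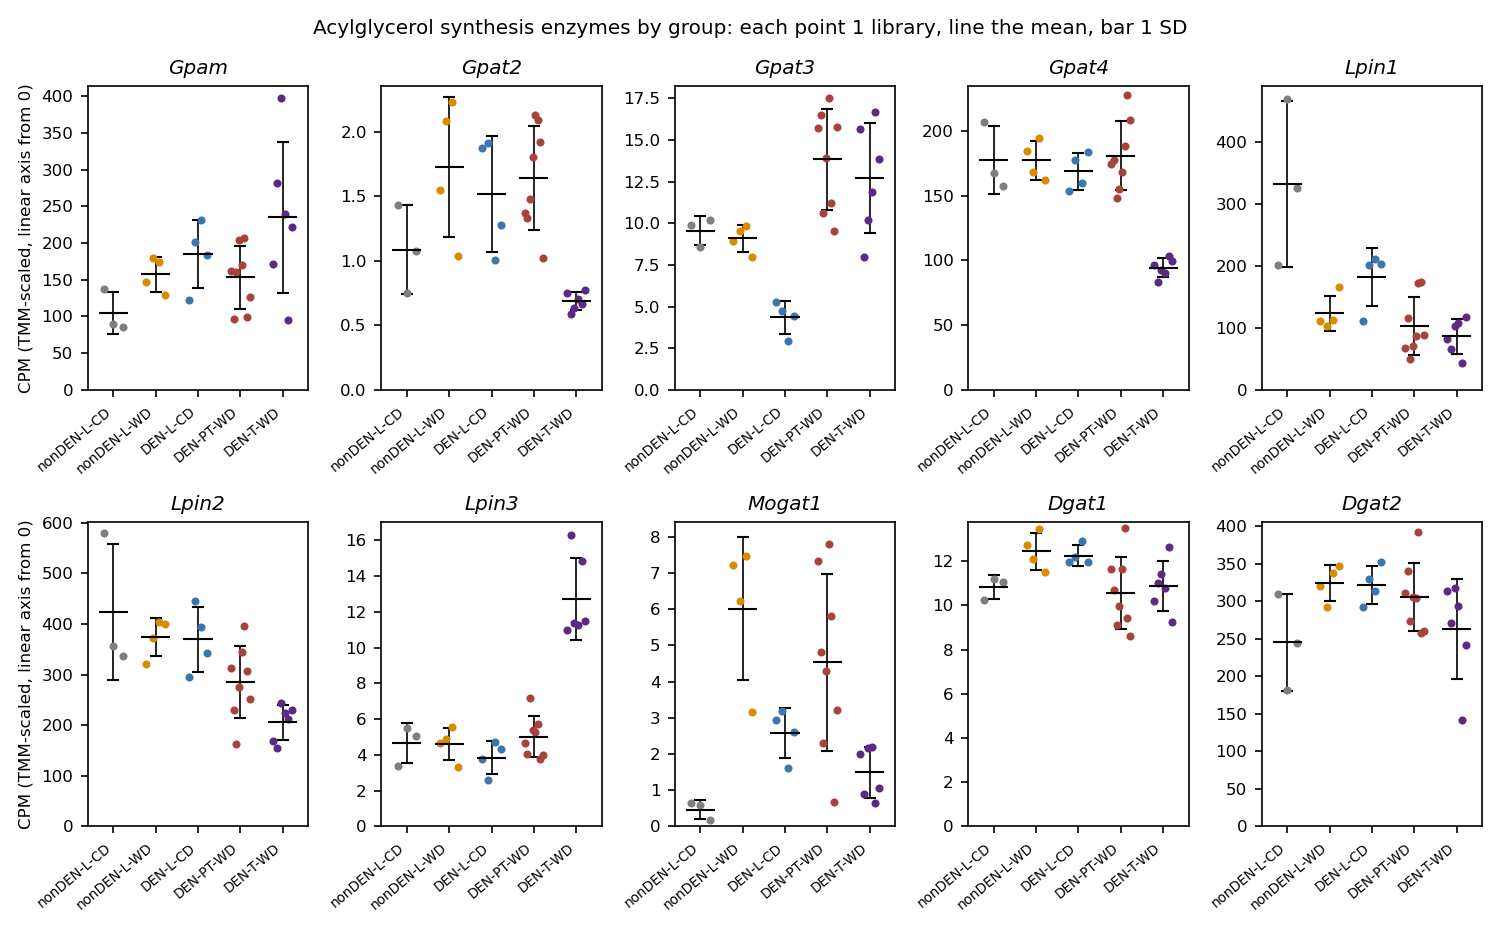
CPM of each member on a linear axis from 0, with 1 point per library, a line at the group mean and a bar of 1 SD, for nonDEN-L-CD (n = 3), nonDEN-L-WD (n = 4), DEN-L-CD (n = 4), DEN-PT-WD (n = 8) and DEN-T-WD (n = 6). Mogat1 is under 1 CPM in every nonDEN-L-CD library, the 4 DEN-L-CD libraries are the lowest of Gpat3, and Dgat1 stays between 8.60 and 13.5 CPM in every library.

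Gpat3 (chr5:100845713-100899102, + strand, GRCm38) encodes a GPAT of the endoplasmic reticulum. It measured 9.89, 8.56 and 10.2 CPM in nonDEN-L-CD and 8.95, 9.57, 9.86 and 8.00 CPM in nonDEN-L-WD. It measured 5.29, 4.74, 2.94 and 4.41 CPM in DEN-L-CD. Among the DEN-PT-WD libraries the lowest had 9.54, the median was 14.8 and the highest had 17.5 CPM. The DEN-L-CD libraries lay below all others, and the lowest peritumoral library, at 9.54 CPM, lay within the range of the groups without DEN. DEN on CD lowered Gpat3 by -1.13 ± 0.23 (adjusted p = 0.00152). The opposite direction was found on WD, where DEN-PT-WD exceeded nonDEN-L-WD by 0.61 ± 0.19 (adjusted p = 0.0358). The difference between these DEN effects, the interaction, was 1.74 ± 0.30 (adjusted p = 0.00135).

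Gpat3 in DEN-PT-WD exceeded that in DEN-L-CD by 1.67 ± 0.20 (adjusted p = 0.000173), and no library of DEN-PT-WD overlapped DEN-L-CD. Diet and place of sampling cannot be told apart in this comparison, which is named WD in DEN mice. Without DEN the diet gave -0.07, with a 95% interval of -0.52 to 0.38 (estimate and normal interval from the SE). DEN and diet together gave 0.53 ± 0.21 against nonDEN-L-CD (adjusted p = 0.0385). Compared directly, DEN alone was lower than WD alone by -1.06 (adjusted p = 0.0204), a comparison in which 0.717% of all genes were called. The decrease with DEN on CD, the increase with WD in DEN mice and the interaction were called in every alternative analysis. The 2 smaller increases were not. DEN-PT-WD against nonDEN-L-WD lost the call in 12 of 20 alternatives, among them leaving out any 1 of the 4 nonDEN-L-WD libraries or DEN-PT-WD replicate 1, 2, 4, 5 or 8, over which the value ran from 0.55 to 0.65. Without the libraries of high pancreas marker level it was 0.47 (adjusted p = 0.343). DEN and diet together lost it in 10 of 19, among them leaving out any nonDEN-L-CD library (0.46 to 0.58), DEN-PT-WD replicate 1, 2, 5 or 8 (0.48 to 0.51) or the libraries of high pancreas marker level (0.52, adjusted p = 0.143).

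The exons of Gpat3 share 1052 of 3502 bases (30.0%) with 4930458D05Rik, an antisense gene on the opposite strand. Whether counting used strand is not given in the sources used here, so reads in that stretch cannot be assigned with certainty. The antisense gene had a mean of 16.9 expected counts per library, against 307 for Gpat3. It was also the gene most like Gpat3 over the 25 libraries, with a Pearson correlation of 0.867 on log2 CPM. Plvap, a protein of fenestrated endothelium, followed with 0.852, and Slc16a5, a monocarboxylate transporter family member, with 0.848. By Spearman's rho over the 25 libraries Slc16a5 ranked 1 (0.878) and the antisense gene ranked 26 (0.774). Over the 19 libraries that were not tumor the antisense gene ranked 1 by Pearson correlation (0.889). Endothelial markers summed to 86.8 to 107 TPM in nonDEN-L-CD, 78.7 to 123 in nonDEN-L-WD, 94.3 to 106 in DEN-L-CD and 124 to 157 in DEN-PT-WD. All 8 peritumoral libraries were above the 3 liver groups in that sum, and DEN-L-CD, the group lowest in Gpat3, overlapped the livers without DEN. DEN-PT-WD also exceeded DEN-L-CD in other cell type markers, without overlap for bile duct (72.7 to 325 against 39.9 to 66.0 TPM) and stellate cells (46.3 to 65.2 against 31.1 to 34.3 TPM), and with overlap for macrophages (108 to 226 against 90.7 to 129 TPM). Fewer cells of a type and less RNA per cell cannot be told apart in bulk tissue, and the part of these cell types in the Gpat3 values was not tested.

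The other GPATs were not called in the 5 comparisons by the count test. Gpam (chr19:55067268-55127238, - strand) encodes the mitochondrial GPAT, a target of insulin and SREBP1c signalling in liver. It measured 138, 89.9 and 85.9 CPM in nonDEN-L-CD, 146, 180, 174 and 129 CPM in nonDEN-L-WD and 122, 201, 232 and 183 CPM in DEN-L-CD. Across DEN-PT-WD it ranged from 96.1 to 207 CPM with a median of 161. The nonDEN-L-CD libraries overlapped each of the other groups through replicate 1. WD without DEN gave 0.59 ± 0.34 (adjusted p = 0.223) and DEN on CD gave 0.82 ± 0.34 (adjusted p = 0.0899). The latter passed the threshold when only the groups compared entered the fit (adjusted p = 0.0402).

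Gpat4 (chr8:23171265-23208346, - strand), the other GPAT of the endoplasmic reticulum, measured 207, 167 and 158 CPM in nonDEN-L-CD and 184, 168, 195 and 162 CPM in nonDEN-L-WD. It measured 154, 178, 160 and 184 CPM in DEN-L-CD and 148 to 228 CPM in DEN-PT-WD, so all 4 groups overlapped. Its fold changes in the 5 comparisons without tumor samples ran from -0.07 to 0.10, and none was called on counts. On the TPM scale Gpat4 was called higher in DEN-PT-WD against each of the other groups tested there, by 0.33 against nonDEN-L-WD, 0.50 against DEN-L-CD and 0.48 against nonDEN-L-CD in log2(TPM + 0.1). The median of all genes moved on that scale by 0.22, 0.30 and 0.35 in the same comparisons.

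Gpat2 (chr2:127425199-127436092, + strand), a GPAT best known from testis, was near the limit of detection. It measured 0.748 to 1.44 CPM in nonDEN-L-CD, 1.04 to 2.23 in nonDEN-L-WD, 1.01 to 1.91 in DEN-L-CD and 1.02 to 2.13 in DEN-PT-WD. The groups overlapped throughout. WD without DEN gave 0.67 ± 0.29 (adjusted p = 0.101), which became 1.24 (adjusted p = 0.0183) without the libraries of high pancreas marker level and 0.85 (adjusted p = 0.0344) without nonDEN-L-WD replicate 4. DEN and diet together gave 0.59 ± 0.26 (adjusted p = 0.0712), and this passed at 0.86 without the libraries of high pancreas marker level, at 0.81 without nonDEN-L-CD replicate 1 and at 0.64 without DEN-PT-WD replicate 8.

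Lpin1 (chr12:16535669-16610966, - strand) encodes a phosphatidate phosphatase that also acts as a transcriptional coactivator and is induced in liver by fasting and glucocorticoids. It measured 201, 470 and 326 CPM in nonDEN-L-CD and 112, 104, 112 and 166 CPM in nonDEN-L-WD. It measured 112, 202, 211 and 203 CPM in DEN-L-CD, and among the DEN-PT-WD libraries the lowest had 49.9, the median was 87.5 and the highest had 174 CPM. The nonDEN-L-CD libraries were spread over the widest range, with replicate 2 the highest, and stood above every library on WD. WD without DEN lowered Lpin1 by -1.43 ± 0.39 (adjusted p = 0.0101). Without nonDEN-L-CD replicate 2 this was -1.09 and was not called (adjusted p = 0.0891). DEN and diet together lowered it by -1.69 ± 0.32 (adjusted p = 0.000229), and that call held in every alternative.

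DEN on CD gave -0.87 ± 0.38 for Lpin1 (adjusted p = 0.11), and WD in DEN mice gave -0.82 ± 0.30 (adjusted p = 0.0815). The latter was called by DESeq2 (-0.84, adjusted p = 0.0462) and without DEN-PT-WD replicate 6 or 7 (-0.96 and -0.97). The interaction was 0.61 ± 0.50 (adjusted p = 0.476), so the diet effects with and without DEN were not shown to differ. The median of all genes is close to 0 in these comparisons (0.01 to 0.04 on counts).

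Some genes that respond to fasting, glucocorticoids and the circadian clock were, like Lpin1, high in nonDEN-L-CD. Fkbp5, a glucocorticoid-induced chaperone, measured 70.6, 121 and 164 CPM in nonDEN-L-CD, against 27.2 to 34.8 in nonDEN-L-WD and 24.3 to 31.0 in DEN-L-CD. Arntl, a core clock activator, measured 3.25, 7.97 and 3.97 CPM in nonDEN-L-CD, against 0.991 to 1.83 and 1.01 to 1.52. The library highest in Lpin1, nonDEN-L-CD replicate 2, was also the highest in Arntl, while Fkbp5 was highest in replicate 3. Angptl4, a fasting-induced inhibitor of lipoprotein lipase, measured 162 to 220 CPM in nonDEN-L-CD, 69.2 to 95.3 in nonDEN-L-WD and 75.7 to 87.8 in DEN-L-CD. Fkbp5 was lower by -1.98 with WD and by -2.04 with DEN on CD (adjusted p = 0.000417 and 0.000305). Of 11 listed fasting and glucocorticoid genes, 2 were called lower and 0 higher with WD without DEN, and of 12 circadian genes 2 were lower and 1 was higher. The shares of all genes were 12% lower and 11.2% higher. The neutrophil markers S100a8 and S100a9 summed to 6.08, 22.9 and 27.7 TPM in nonDEN-L-CD replicates 1 to 3, against 4.82 to 6.46 in nonDEN-L-WD and 7.87 to 20.7 in DEN-L-CD, so within nonDEN-L-CD the replicates high in Lpin1 were also high in this sum. In DEN-L-CD, replicate 1 had the highest sum (20.7 TPM) and the lowest Lpin1 (112 CPM), and DEN-T-WD replicate 5, the highest sum of all (33.0 TPM), had 43.3 CPM of Lpin1. The hour of tissue collection and feeding state are not given per sample in the sources used here, and neither their part nor that of neutrophils in the Lpin1 values was tested.

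**Figure D2:**
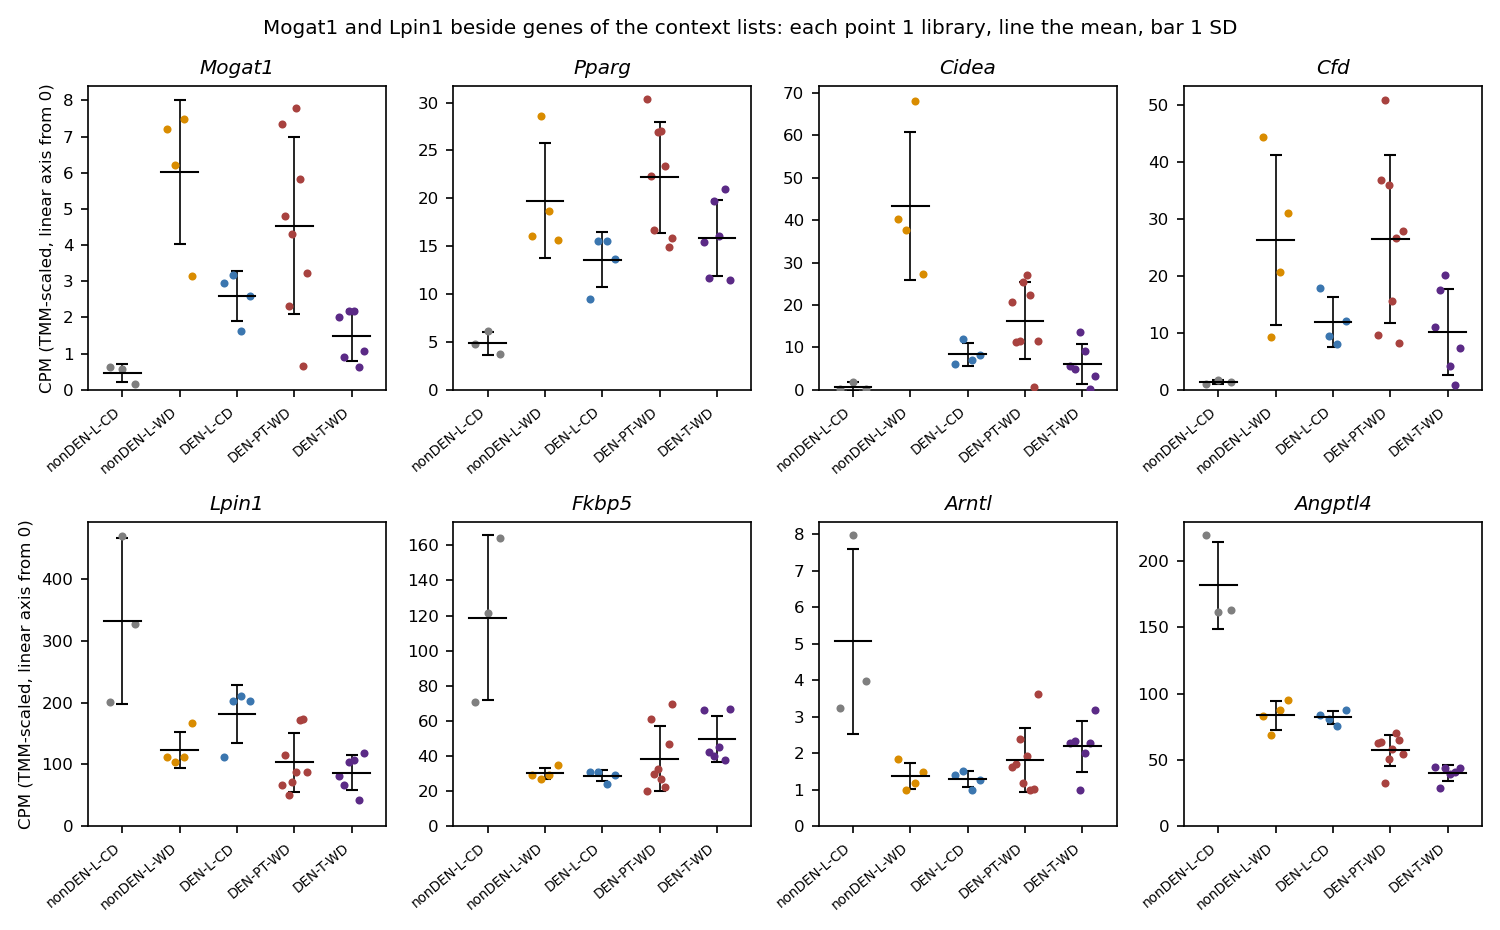
Mogat1 and Lpin1 beside 6 context genes, in CPM on a linear axis from 0, with 1 point per library, a line at the group mean and a bar of 1 SD. The group means of Pparg, Cidea and Cfd are lowest in nonDEN-L-CD as that of Mogat1 is, while those of Fkbp5 (70.6 to 164 CPM by library), Arntl and Angptl4 are highest there as that of Lpin1 is.

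Over 25 libraries the genes most like Lpin1 in log2 CPM were Slc38a2, an amino acid transporter (Pearson r = 0.897), Lurap1l (0.881) and Leng9 (0.874). Points of 1 library share its depth and scaling, and the values are descriptions.

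Lpin2 (chr17:71182560-71249817, + strand), the most abundant lipin of these livers, measured 579, 357 and 337 CPM in nonDEN-L-CD and 322, 371, 405 and 400 CPM in nonDEN-L-WD. It measured 296, 446, 393 and 343 CPM in DEN-L-CD and 163 to 396 CPM in DEN-PT-WD, with a median of 291. The value of nonDEN-L-CD replicate 1 was the highest of all, and the groups overlapped. DEN and diet together lowered Lpin2 by -0.57 ± 0.20 (adjusted p = 0.0224), but without that replicate the value was -0.31 (adjusted p = 0.257) and without the libraries of high pancreas marker level -0.37 (adjusted p = 0.228). Lpin3 (chr2:160880670-160906002, + strand), the least abundant lipin, ranged from 2.57 to 7.19 CPM over the 19 libraries that were not tumor. It was not called in any comparison among them on counts.

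Mogat1 (chr1:78510991-78538173, + strand) encodes an MGAT of mouse liver and adipose tissue, a target of PPAR gamma that is raised in fatty liver. It measured 0.634, 0.582 and 0.166 CPM in nonDEN-L-CD, which rest on 4 to 15 expected counts per library. It measured 7.22, 6.22, 7.48 and 3.16 CPM in nonDEN-L-WD and 2.95, 3.18, 1.62 and 2.60 CPM in DEN-L-CD. Among the DEN-PT-WD libraries the lowest had 0.671, the median was 4.56 and the highest had 7.79 CPM. All libraries of nonDEN-L-WD and DEN-L-CD were above all of nonDEN-L-CD. The lowest peritumoral library was replicate 7, just above the highest nonDEN-L-CD library. Mogat2, another MGAT gene that is not a member, gave 0.49 to 1.90 in the 5 comparisons without tumor samples and was called in none.

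WD without DEN raised Mogat1 by 3.70 ± 0.67 (adjusted p = 0.000515, 95% interval 2.38 to 5.02). DEN on CD raised it by 2.48 ± 0.67 (adjusted p = 0.0102), and DEN and diet together raised it by 3.28 ± 0.64 (adjusted p = 0.000268). These 3 comparisons share the nonDEN-L-CD libraries. DEN on WD gave -0.42 (adjusted p = 0.545), and WD in DEN mice gave 0.80 ± 0.45 (adjusted p = 0.259, 95% interval -0.09 to 1.69). The interaction was -2.90 ± 0.78 (adjusted p = 0.0245), so the DEN effect on WD was lower than that on CD. DEN alone differed from WD alone by -1.22 (adjusted p = 0.288). The effect of DEN on CD was 2.08 (adjusted p = 0.061) without nonDEN-L-CD replicate 3, the library of 4 counts, and the interaction was not called without replicate 2 (-3.10, adjusted p = 0.061) or replicate 3 (-2.50, adjusted p = 0.0935). On log2(TPM + 1), which understates changes of low genes, these 2 values were 1.35 (adjusted p = 0.0554) and -1.72 (adjusted p = 0.066). The diet effect without DEN and the effect of DEN and diet together were called in every alternative.

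Genes of fat storage that respond to PPAR gamma were described beside Mogat1 from a list of 9. Pparg, the receptor, measured 3.72 to 6.11 CPM in nonDEN-L-CD, 15.7 to 28.6 in nonDEN-L-WD, 9.46 to 15.6 in DEN-L-CD and 14.9 to 30.4 in DEN-PT-WD. It rose by 2.02 with WD without DEN and by 1.48 with DEN on CD (adjusted p = 5.8e-05 and 0.0011). Cidea, a lipid droplet protein, measured 0.169 to 1.91 CPM in nonDEN-L-CD, 27.3 to 68.2 in nonDEN-L-WD and 6.17 to 12.1 in DEN-L-CD. Its lowest peritumoral value, 0.61 CPM, was in replicate 7, as for Mogat1. Of the 9 genes, 4 were called higher with WD without DEN and 4 with DEN on CD, where 11.2% and 9.12% of all genes were called higher. The corresponding counts were 4 with WD in DEN mice (6.8% of all genes) and 0 with DEN on WD (7.5%), and none of the 9 was called lower in these 4 comparisons. With DEN and diet together 6 were called higher and 2 lower, where 23.5% and 21.9% of all genes were. In the interaction 2 were called lower and 0 higher, where 3.74% and 4.65% of all genes were. The summed TPM of the list did not follow these calls, at 704 to 1178 in nonDEN-L-CD, 594 to 1062 in nonDEN-L-WD and 545 to 728 in DEN-L-CD. Of 10 listed SREBP1c lipogenic genes, 1 was called higher with WD without DEN and 2 with DEN on CD, and 0 lower. Srebf1, which encodes SREBP1c, rose by 2.43 and 2.03 there (adjusted p = 0.000278 and 0.0012). Its interaction was -1.80 (adjusted p = 0.0257), so a rise in both comparisons was not limited to the PPAR gamma list.

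Over 25 libraries the genes most like Mogat1 were Sema5b (r = 0.932), the fatty aldehyde dehydrogenase gene Aldh3a2 (0.915) and the nuclear receptor gene Esrrg (0.915). Over the 19 libraries that were not tumor these were 0.948, 0.940 and 0.925. Exons of Mogat1 share 200 of 1558 bases (12.8%) with BC035947 on the opposite strand, which had a mean of 8.96 expected counts against 88.4.

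Adipocyte markers were lowest in nonDEN-L-CD, as Mogat1 was, among the groups without tumor. Their sum over 5 genes was 2.44 to 2.98 TPM in nonDEN-L-CD, 22.0 to 78.5 in nonDEN-L-WD, 16.9 to 29.4 in DEN-L-CD and 18.3 to 92.8 in DEN-PT-WD, and most of it was Cfd, which fatty hepatocytes can also express (1.47 to 2.53 TPM in nonDEN-L-CD and 16.2 to 72.7 in nonDEN-L-WD). Adipoq, which defines adipocytes, was at 0.11 to 0.66 TPM in nonDEN-L-CD, 0.51 to 3.38 in nonDEN-L-WD, 1.29 to 3.67 in DEN-L-CD and 0 to 2.32 in DEN-PT-WD, and Lep was at 0 in all 3 nonDEN-L-CD libraries. Within DEN-PT-WD the highest adipocyte sum was in replicate 3, where Mogat1 was at 2.31 CPM, and the sums of replicates 1 and 5, highest in Mogat1, were 22.2 and 31.9 TPM. Markers of B cells (0.56 to 1.53 TPM in nonDEN-L-CD, 2.26 to 4.52 in nonDEN-L-WD and 2.18 to 6.96 in DEN-L-CD) and of bile duct (32.4 to 39.1, 45.2 to 68.6 and 39.9 to 66.0 TPM) were also lowest in nonDEN-L-CD, without overlap. The part of these cell types in the Mogat1 values was not tested.

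Neither DGAT was called in the comparisons without tumor samples. Dgat2 (chr7:99153658-99182719, - strand), which esterifies newly made fatty acids in liver, measured 310, 181 and 244 CPM in nonDEN-L-CD, 320, 292, 338 and 347 CPM in nonDEN-L-WD and 292, 329, 314 and 352 CPM in DEN-L-CD. Across DEN-PT-WD it ranged from 257 to 392 CPM with a median of 305. nonDEN-L-CD replicate 1 lay within the range of the other groups, and replicates 2 and 3 lay below them. WD without DEN gave 0.40 ± 0.20 (adjusted p = 0.159), and DEN and diet together gave 0.32 (adjusted p = 0.159).

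Dgat1 (chr15:76502015-76511953, - strand), the other enzyme of the final step, spread little. It measured 10.2, 11.2 and 11.0 CPM in nonDEN-L-CD, 12.7, 12.1, 13.5 and 11.5 CPM in nonDEN-L-WD, 12.0, 12.2, 12.9 and 12.0 CPM in DEN-L-CD and 8.60 to 13.5 CPM in DEN-PT-WD. The nonDEN-L-CD libraries lay below all nonDEN-L-WD and DEN-L-CD libraries, although WD without DEN gave only 0.20 (adjusted p = 0.24) and DEN on CD 0.18 (adjusted p = 0.311). The interaction was -0.41 ± 0.15 (adjusted p = 0.0955). Without DEN-PT-WD replicate 6 Dgat1 was called in 3 comparisons, at -0.29 for DEN on WD, -0.27 for WD in DEN mice and -0.47 for the interaction.

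**Figure D3:**
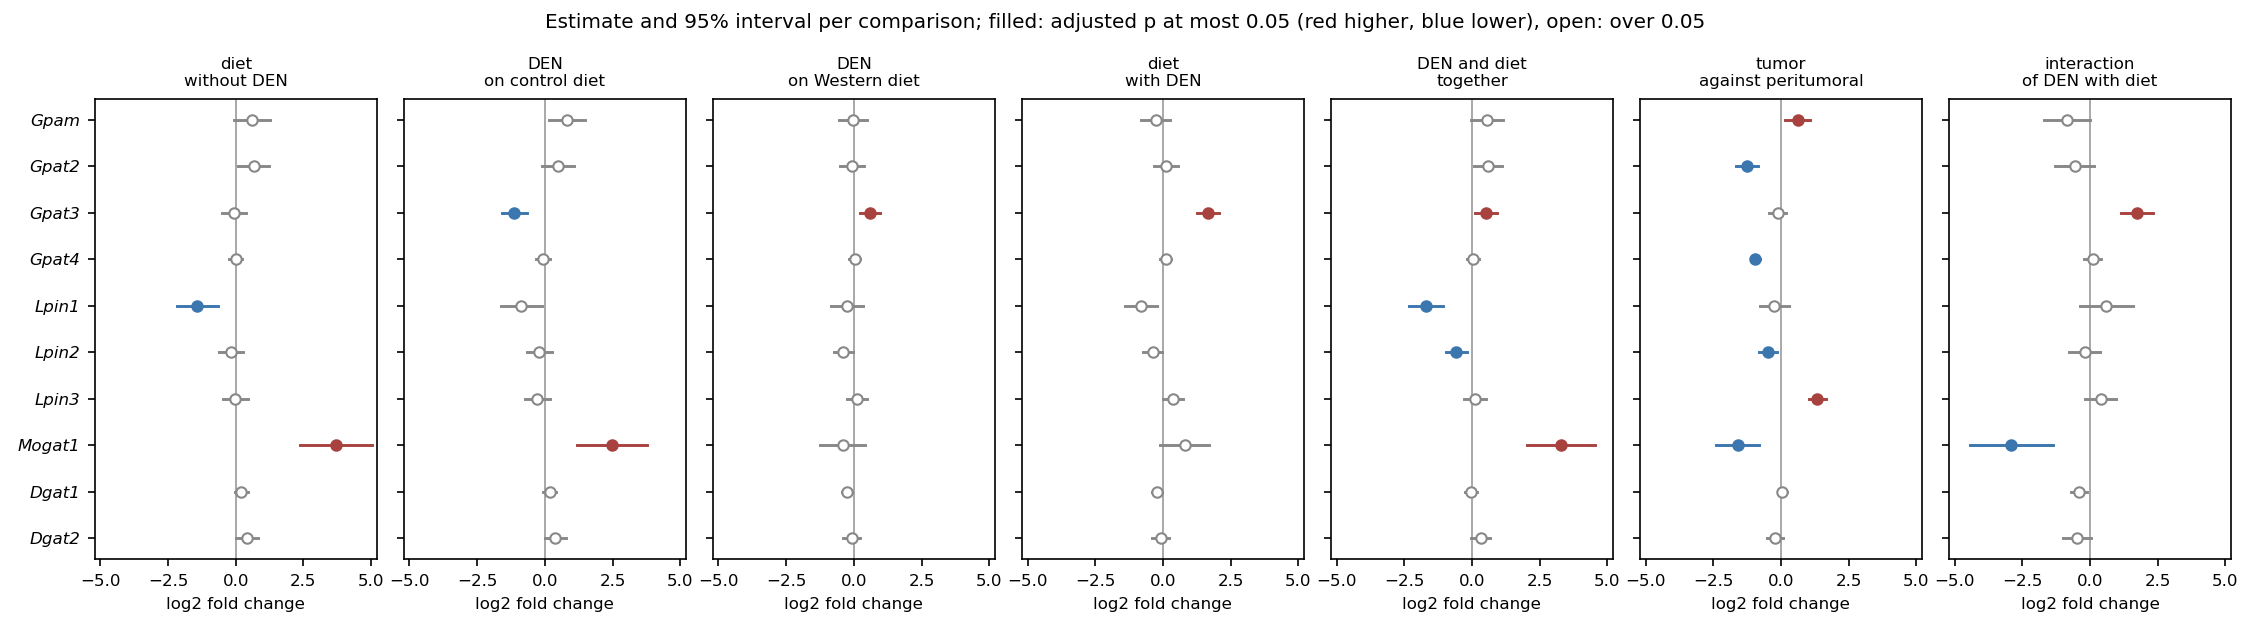
Log2 fold change and 95% interval of each member in 6 pairwise comparisons and, at the right, the DEN by diet interaction, filled where the adjusted p is at most 0.05 (red higher, blue lower) and open otherwise. Mogat1 is the only filled point above 2 (3.70, 2.48 and 3.28 in the 3 comparisons with nonDEN-L-CD), and Gpat3 is filled below 0 with DEN on CD (-1.13) and above 0 in the other DEN comparisons without tumor samples.

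Among the 5 comparisons without tumor samples, the share of members called was close to that of all genes or below it. WD without DEN called 2 of 10 members, with 23.2% of all genes called, and DEN on CD called 2, with 21.3%. DEN on WD called 1 (12.4% of all genes), WD in DEN mice called 1 (10.6%), and DEN and diet together called 4 (45.3%). The interaction called 2, with 8.39% of all genes. At a log2 change of at least 1 in addition, the members called numbered 2, 2, 0, 1 and 2 in the 5 comparisons, with 5.28%, 4.7%, 2.76%, 1.9% and 13.3% of all genes, and 2 in the interaction, with 2.75%. The median absolute log2 change of the members and of all genes was 0.30 and 0.28 for WD without DEN, 0.44 and 0.28 for DEN on CD, 0.18 and 0.19 for DEN on WD, 0.32 and 0.19 for WD in DEN mice and 0.54 and 0.37 for DEN and diet together. On log2(TPM + 0.1) DEN and diet together called 7 members, adding Gpam (0.88), Gpat2 (0.84), Gpat4 (0.48) and Dgat2 (0.68) and losing Lpin2 (-0.17), where the median of all genes moved by 0.35. On that scale Lpin3 was called at 0.76 for WD in DEN mice, with a median gene at 0.30, and Dgat2 at 0.55 for WD without DEN, with a median gene at 0.12.

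The enzymes of each step were compared per length, in TPM. In nonDEN-L-CD the GPATs summed to 112 ± 15.8 TPM (SD, n = 3), the lipins to 215 ± 26.5 TPM and the DGATs to 148 ± 28.8 TPM, with Mogat1 at 0.56 TPM. In nonDEN-L-WD (n = 4) they summed to 144 ± 24.5, 176 ± 14.6 and 211 ± 13.1 TPM with Mogat1 at 7.84 TPM. In DEN-PT-WD (n = 8) they summed to 176 ± 18.9, 156 ± 39.3 and 231 ± 32.6 TPM with Mogat1 at 6.52 TPM. Relative to nonDEN-L-CD the median of all genes was higher by 0.12 in nonDEN-L-WD and by 0.35 in DEN-PT-WD on log2(TPM + 0.1), and on counts neither Gpat4 (0.03) nor Dgat2 (0.32) was called between DEN-PT-WD and nonDEN-L-CD. Mogat1 was a minor transcript of the set even in the group where it was highest. Within the GPATs, Gpat4 held 65.6% and Gpam 30.2% of the TPM in nonDEN-L-CD, and Gpat3 held from 1.46% in DEN-L-CD to 5.02% in the tumors, with 4.51% in the peritumoral tissue. Lpin1 held 34.9% ± 14.0 of the lipin TPM in nonDEN-L-CD, but 16.9% of it in nonDEN-L-WD. Dgat2 held 93.0% to 95.5% of the DGAT TPM in every group.

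**Figure D4:**
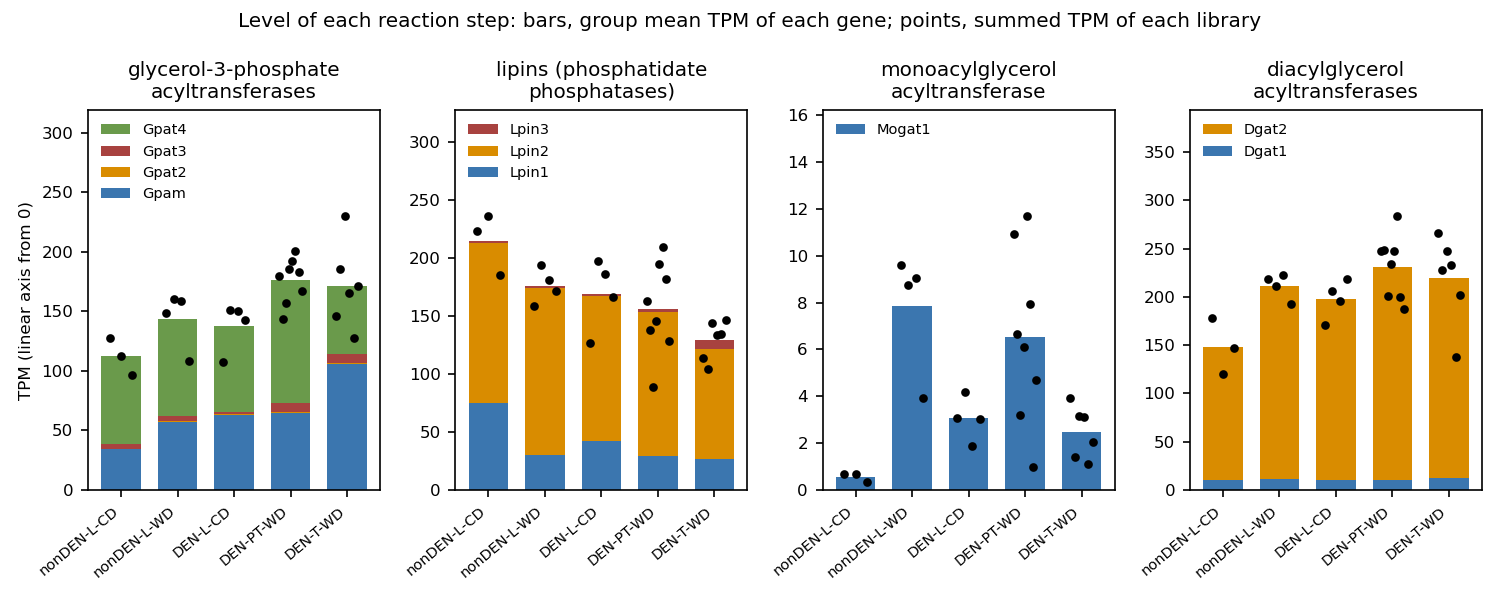
TPM of each reaction step on linear axes from 0, with stacked bars for the group mean of each gene and points for the summed TPM of each library. The GPAT sum is 112 TPM in nonDEN-L-CD and 176 TPM in DEN-PT-WD, the lipin sum 215 and 156 TPM, and Mogat1, on its own axis, 0.56 and 6.52 TPM, where the median of all genes differs by 0.35 on log2(TPM + 0.1).

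The order of groups by mean TPM was read with the count test between neighbours. Mogat1 ran in the order nonDEN-L-WD (7.84 TPM), DEN-PT-WD (6.52), DEN-L-CD (3.05), DEN-T-WD (2.46) and nonDEN-L-CD (0.56), and only the last step differed beyond the spread (adjusted p = 0.029). For Gpat3 the order was DEN-T-WD (7.95 TPM), DEN-PT-WD (7.83), nonDEN-L-WD (4.44), nonDEN-L-CD (4.13) and DEN-L-CD (1.95), and the second and the fourth steps were called. No neighbours differed for Lpin1, from nonDEN-L-CD (75.0 TPM) through DEN-L-CD (42.0), nonDEN-L-WD (29.6) and DEN-PT-WD (29.3) to DEN-T-WD (26.8).

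Of 34 other genes of glycerolipid metabolism, listed by role, WD without DEN called 3, DEN on CD 2, DEN on WD 4 and WD in DEN mice 0, while 23.2%, 21.3%, 12.4% and 10.6% of all genes were called. Acsl4, an acyl-CoA synthetase for arachidonate, fell by 1.10 with WD without DEN (adjusted p = 0.00333) and by 0.72 with DEN on CD (adjusted p = 0.0429). Ctdnep1, the phosphatase that activates lipins, fell by 0.28 and 0.38 in the same comparisons (adjusted p = 0.00259 and 0.000187). Gk, the glycerol kinase, rose by 0.62 with WD without DEN (adjusted p = 0.0216). With DEN on WD, the acyltransferases Agpat1 and Agpat3 fell by 0.40 and 0.35 (adjusted p = 0.0262 and 0.0105). DEN and diet together called 9, 5 higher and 4 lower, among them Ldaf1, a lipid droplet assembly factor, at 0.85 (adjusted p = 0.00514), while 45.3% of all genes were called.

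The tumors differed from the peritumoral tissue in Gpat4, Gpat2 and Lpin3, which the count test did not call between the groups other than tumor. Tumor against peritumoral tissue called 6 of 10 members, with 37.7% of all genes called, and 3 of 10 at a log2 change of at least 1, with 7.9% of all genes. Gpat4 measured 83.1 to 104 CPM in DEN-T-WD with a median of 94.6, below every DEN-PT-WD library, and fell by 0.94 ± 0.09 (adjusted p = 1.4e-07). Gpat2 measured 0.586 to 0.776 CPM with a median of 0.687 and fell by 1.25 ± 0.21 (adjusted p = 8.5e-05). Lpin3 measured 11.0 to 16.3 CPM with a median of 11.4 and rose by 1.35 ± 0.16 (adjusted p = 1.3e-06). For these 3 genes tumor and peritumoral libraries did not overlap, and they were called in every alternative. The same 8 peritumoral libraries took part in the earlier comparisons with DEN-PT-WD.

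Mogat1 measured 0.639 to 2.19 CPM in DEN-T-WD with a median of 1.53 and fell by 1.60 ± 0.41 (adjusted p = 0.00349), overlapping the peritumoral range, with -1.21 (adjusted p = 0.0948) without the libraries of high pancreas marker level. Gpam measured 95.1 to 398 CPM in the tumors with a median of 231, the lowest being replicate 5, and rose by 0.62 ± 0.24 (adjusted p = 0.043). Gpam lost the call in 13 of 22 alternatives, among them without DEN-T-WD replicate 3 (0.40, adjusted p = 0.177), and also without DEN-T-WD replicate 2, 4 or 6 or DEN-PT-WD replicate 1, 2, 3, 7 or 8 (0.54 to 0.63). Without the libraries of high pancreas marker level Gpam was at 0.64 (adjusted p = 0.135). Lpin2 fell by 0.47 ± 0.16 (adjusted p = 0.0266), at 155 to 243 CPM in the tumors with a median of 218, and lost the call in 8 of 22 alternatives, among them without DEN-PT-WD replicate 5 or 6 or DEN-T-WD replicate 1 or 2 (-0.43 to -0.39), without the libraries of high pancreas marker level (-0.42) and on log2(TPM + 0.1) (-0.36). Gpat3 (-0.12, adjusted p = 0.584), Lpin1 (-0.25, adjusted p = 0.515), Dgat1 (0.04, 95% interval -0.12 to 0.21) and Dgat2 (-0.22, adjusted p = 0.254) were not called. Within the GPATs, Gpam held 59.8% ± 13.1 of the TPM in the tumors and 36.1% ± 8.22 in the peritumoral tissue, and Gpat4 held 34.9% and 58.8%. Bile duct markers summed to 385 to 833 TPM in the tumors and 72.7 to 325 TPM in the peritumoral tissue, and the hepatocyte markers Alb and Apoa1 averaged 80146 and 16349 TPM in the tumors against 40114 and 7363 TPM in the peritumoral tissue, while Ttr, Cps1 and Tat of that list averaged 2855, 486 and 428 TPM against 3565, 756 and 734 TPM, and Hnf4a 180 against 157 TPM. Their part in the tumor values was not tested. Of the 34 other genes 18 were called in the tumors, 9 in each direction, with 37.7% of all genes called. Among them were Acsl4 at 1.23 and Chpt1, a phosphatidylcholine synthesis enzyme, at -1.08. Mogat2 was also among them, at 1.89, the opposite direction to Mogat1.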

How the data were processed

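RNA from frozen liver and tumor tissue was sequenced as mRNA libraries (KAPA mRNA HyperPrep) for 25 samples in 5 groups taken from the sample titles. The authors aligned reads to GRCm38 with STAR and quantified genes with RSEM, after FastQC, per the labels and methods. The versions of the aligner and of RSEM, the annotation release and the strand setting are not given in the sources used here. The authors deposited RSEM expected counts (not normalized), TPM values (shares of transcripts corrected for length) and FPKM values (reads per length and depth), of which FPKM served only as an alternative for the summed level of each step.

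Expected counts were rounded and fitted over the 5 groups by the quasi-likelihood functions glmQLFit and glmQLFTest (edgeR 4.0.16, R 4.3.3) with TMM scaling and filterByExpr (minimum count of 10, 15625 genes tested, Benjamini-Hochberg adjustment). The thresholds, an adjusted p of at most 0.05 and, for part of the counts, a log2 change of 1 or more in either direction, follow the study's methods, which name DESeq2 with apeglm. DESeq2 1.42.0, apeglm 1.24.0 and limma 3.58.1 on log2(TPM + 1) and log2(TPM + 0.1) were alternatives, with other filters, scalings, sample subsets and a replicate block. The steps were tested on simulated data. Gene names and positions came from GENCODE M21, which named 48435 of 48795 genes. All members are named, other genes by role lists or by the 3 highest correlations on log2 CPM. Members and lists were chosen with earlier results of these data known. No 2 libraries of a group agreed within sampling noise. Total counts of 21530083 to 38074411 per library limit precision for genes below about 1 CPM.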

Additional observations from a re-analysis of the deposited data

Results flagged for a closer look

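Lpin1 gave unusual libraries in 2 of 40 sets of 1 member in 1 group that were screened for a library far from the rest, where chance gives about 1 in 20. Among the nonDEN-L-WD libraries, replicate 4 was the highest at 166 CPM, with the nearest at 112 CPM. Among those of DEN-L-CD, replicate 1 was the lowest at 112 CPM, with the nearest at 202 CPM.

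The effect of DEN differed between the diets for 2 members by the interaction term of edgeR's quasi-likelihood test. Gpat3 gave an interaction of 1.74 (adjusted p = 0.00135) on the log2 scale, with a DEN effect of -1.13 on CD and 0.61 on WD. Mogat1 gave -2.90 (adjusted p = 0.0245), with 2.48 on CD and -0.42 on WD. The WD arm was peritumoral tissue and the CD arm was liver, and the place of sampling and the diet cannot be told apart in this term.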

How the results depend on the processing

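Of 70 values (10 members in 6 comparisons and the interaction), 18 were called, and all 18 kept their sign in each of the 15 to 27 alternatives run for them. Of these, 9 were called in every alternative and 9 lost the call in at least 1. Of the 52 values not called, 23 changed sign in at least 1 alternative and 15 were called in at least 1. The number of members called moved by over 1.5 times as follows, and the cause was not tested. For DEN on CD it was 1 with limma on log2(TPM + 1), and with the fold minimum 0 there and 1 without the libraries of high pancreas marker level, an alternative chosen after seeing the data. For DEN on WD it was 0 without the filter on low counts, with the replicate block and without those libraries, and 2 on both TPM scales. For WD in DEN mice it was 2 with DESeq2, 2 with the replicate block (also with the fold minimum) and 3 on both TPM scales. For DEN and diet together it was 7 on both TPM scales. For tumor against peritumoral tissue it was 3 without those libraries, and 1 with the fold minimum on log2(TPM + 1). The interaction called 1 on log2(TPM + 1) with and without the fold minimum. Leaving out 1 library gave 1 to 3 members for WD without DEN (1 to 2 with the fold minimum), 1 to 2 for DEN on CD, 0 to 2 for DEN on WD, 1 to 3 for WD in DEN mice, 3 to 4 for DEN and diet together, 4 to 6 for the tumors and 1 to 3 for the interaction (1 to 2 with the fold minimum). Over all genes, the count called for DEN on WD was 1933, and 1119 with the replicate block and 3457 on log2(TPM + 1). For WD in DEN mice it was 1650, and 1060 without the filter, 6108 on log2(TPM + 1) and 6397 on log2(TPM + 0.1). The deviations of same-numbered samples correlated at -0.24 to 0.39, and between no 2 groups were all pairs over 0.1, so the numbers were not taken as pairs. The labels do not say whether DEN-PT-WD and DEN-T-WD samples came from the same mice. With the replicate block Lpin1 was called for DEN on CD (-0.92) and for WD in DEN mice (-1.06), while Gpat3 for DEN on WD (0.55) and for DEN and diet together (0.49) and Gpam (0.41) and Lpin2 (-0.45) in the tumors lost the call. Depth limits Mogat1 in nonDEN-L-CD (4 to 15 counts) and Gpat2 (17 counts at the lowest).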
